A study of Mus musculus with 6 samples.

Results

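The 36 genes described here build the contractile actin cytoskeleton and the focal adhesions that anchor it: the actins, myosin II, the tropomyosins, proteins that bind along or crosslink actin filaments, adaptors of adhesions and stress fibres, and the transcription factor Srf. They were taken by name from the 55401 genes of the count table, with earlier results of these data known. All 36 were found by Ensembl identifier, and all 36 passed the filter on low counts (at least 2 counts in at least 5 of 6 libraries), as did 22318 genes in all.

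Poly(A) RNA was sequenced from 6 cultures of primary Schwann cells (SCs), the glia of peripheral nerve, grown from the dorsal root ganglia of adult mice. Of these, 3 were wild type (WT) and 3 lacked Plexin-B1 (*Plxnb1-/-*), a receptor for class 4 semaphorins that acts on small GTPases inside the cell. The *Plxnb1-/-* mice carry a transmembrane-lacZ-neo gene trap inserted into *Plxnb1*, so every cell of the animal has the allele, and the series describes the WT mice as littermates. Cells of both genotypes grew on poly-L-lysine and laminin in SC medium with forskolin, neuregulin and serum. Fibroblasts were removed with an antibody to Thy1, and the purity stated for the cultures was not complete. The labels number the replicates and do not say how many animals gave each culture, so that a p-value here measures the spread between these 6 libraries.

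Each library held between 59252048 and 77280964 counts. Taken as the floor of detection, 3 counts corresponded to 0.0388 to 0.0506 counts-per-million (CPM) of these unscaled totals. All other CPM values use library sizes scaled by TMM. Values of single cultures are given in the order of replicates 1, 2 and 3. The targeted gene followed the labels: *Plxnb1* measured 61.8, 45.4 and 96.4 CPM in the WT cultures and 13.1, 16.6 and 18.6 CPM in the *Plxnb1-/-* cultures, a log2 fold change of -2.08 (adjusted p = 0.0449, edgeR's quasi-likelihood test with Benjamini-Hochberg adjustment). The *Plxnb1-/-* mean was 23.7% of the WT mean of *Plxnb1*. These counts take in all exons of the gene, and the study reports loss of expression for the exons downstream of the trap. The source of the remaining counts was not tested. All 8 SC markers described here, *Sox10*, *S100b* and *Ngfr* among them, were above 1 CPM. Markers of fibroblasts were present as well. *Thy1*, the target of the depletion, measured 429, 652 and 489.9 CPM in WT and 409.7, 409 and 384 CPM in *Plxnb1-/-* cultures. WT replicate 2 had the highest *Thy1*, the highest summed fibroblast markers and the lowest summed SC markers of the 6 libraries. For the members, a log2 fold change or log2 ratio that changed by over 1.5 times when this culture was left out is also given without it. Values of other genes rest on all 6 libraries.

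Actin monomers assemble into filaments that tropomyosin, caldesmon and calponin coat, that alpha-actinin and filamin crosslink, and that myosin II pulls against each other once its regulatory light chain has been phosphorylated. Bundles of such filaments, the stress fibres, end at focal adhesions, where talin and vinculin tie them to integrins. Many of the genes are targets of serum response factor (SRF), whose cofactors of the MRTF family are held in the cytoplasm by unpolymerized actin. In cultured SCs this machinery serves spreading, process extension and migration. The smooth muscle isoforms, such as *Acta2* and *Cnn1*, are used as markers of contractile cells and are also found in myofibroblasts, mural cells and cultured cells of other types.

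Of the 36 genes, 33 had a log2 fold change below 0 in *Plxnb1-/-* against WT cultures, and the 3 above 0, *Mylk*, *Myh10* and *Actn4*, lay at 0.01, 0.03 and 0.03. The median of the 36 was -0.17, whereas the median over all tested genes was 0.00496 and 48.5% of these lay below 0. In 28 of the 36 genes the 3 *Plxnb1-/-* cultures all measured lower than the 3 WT cultures. The share of all tested genes with that pattern was 10.4%, or 13.7% of those with a mean of at least 10 CPM. No member had the opposite pattern, which 9.30% of all tested genes showed. Because the members were chosen with earlier results of these data known, the shares of all genes give a scale and not an independent test. Summed over the members, the counts came to 20127, 22408 and 20432 CPM in WT replicates 1, 2 and 3 and to 18781, 18922 and 18664 CPM in the *Plxnb1-/-* replicates, so that the groups did not overlap. As RNA was taken from whole cultures, fewer cells of a type and less RNA per cell cannot be told apart.

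None of the 36 genes was called by edgeR's quasi-likelihood test under the thresholds used here, which were 0.05 for the adjusted p and 0.25 for the size of the log2 fold change, and their adjusted p ranged from 0.168 to 1.00. Across all genes the same test called only 8, with 7 of them lower (0.0314%) and 1 higher (0.00448%) in *Plxnb1-/-* cultures. At an unadjusted p below 0.05, 24 members were lower and 0 were higher, against 6.78% of all tested genes lower and 6.95% higher. DESeq2 on the same genes called 7 members, all lower: *Acta2*, *Cnn1*, *Myl9*, *Tpm2*, *Actn1*, *Flnc* and *Enah* (0.811% of all tested genes, with 0.690% called higher). Leaving out the fold cutoff, 10 members were lower by DESeq2 (0.901% of all), with *Cnn2*, *Tpm1* and *Vasp* in addition. By size alone, 9 members lay below -0.25, as did 13.4% of all tested genes, many of them with low counts. Among the 10159 tested genes with a mean of at least 10 CPM, 350 lay below -0.25. Of the same 10159, 987 were lower and 1005 higher at an unadjusted p below 0.05 (edgeR's quasi-likelihood test), and DESeq2 called 134 lower and 112 higher. When genes of any count were kept, edgeR called 8 members, all lower (0.564% of the genes then tested). Since edgeR called none among the filtered genes, the genes are described by their values, and those that DESeq2 called are named as such.

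**Figure D1:**
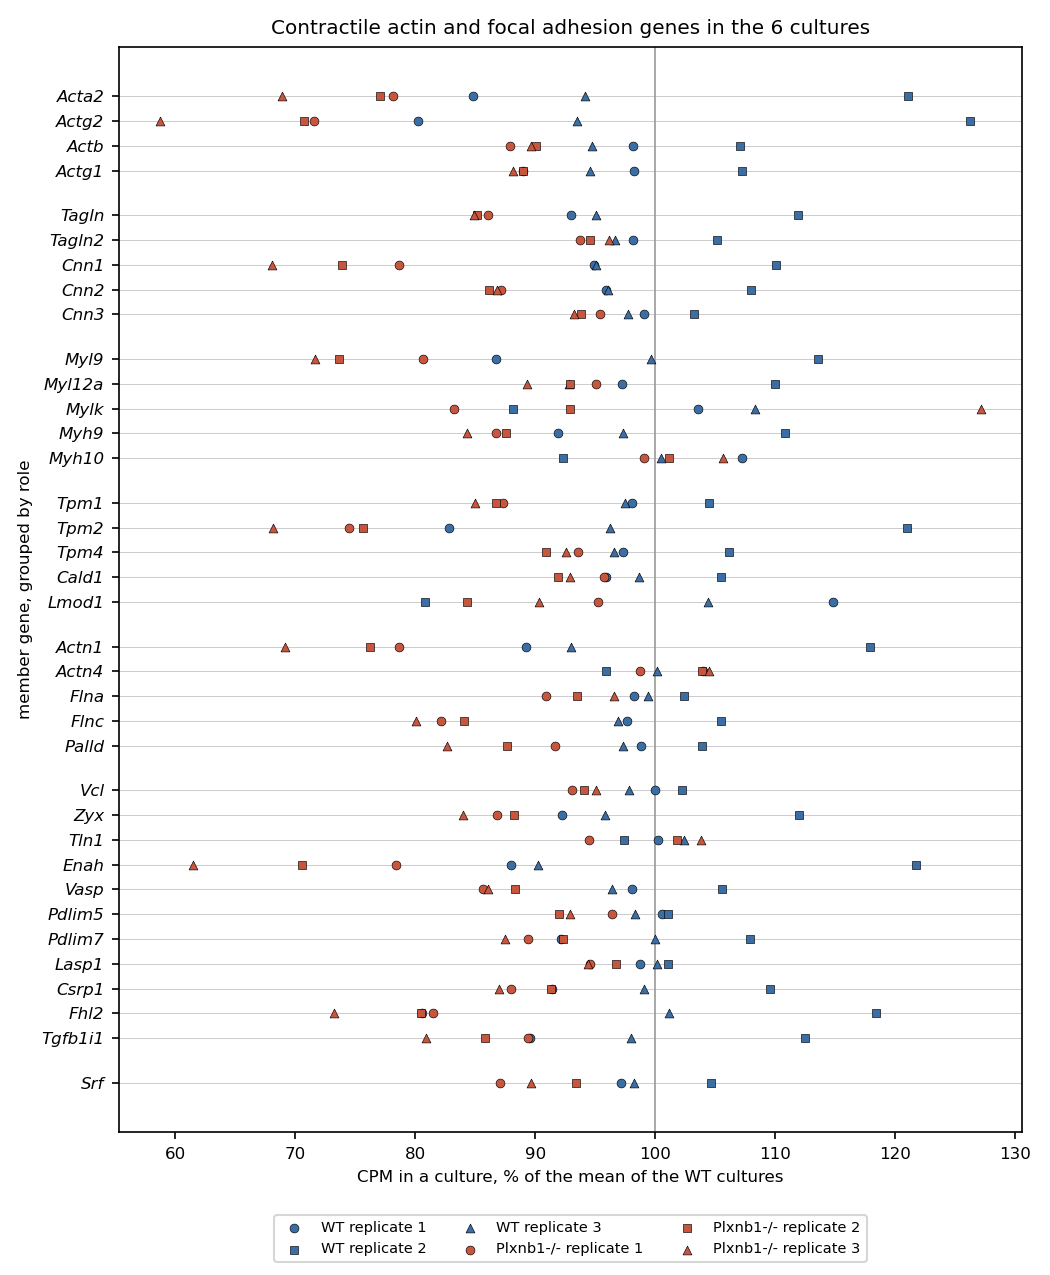
Level of each of the 36 genes in each culture, in CPM as a percentage of the mean of the WT cultures (x axis), with the genes grouped by role (y axis). Blue symbols stand for WT and red for Plxnb1-/- cultures, and circles, squares and triangles for replicates 1, 2 and 3. In 28 genes all red symbols lie left of all blue ones, and the blue square, WT replicate 2, is the highest value in 31.

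All 4 actins measured lower in every *Plxnb1-/-* culture than in any WT culture. *Acta2* (chr19:34241090-34255590, minus strand, GRCm38), the smooth muscle alpha-actin, measured 822, 1173 and 912 CPM in the WT libraries, against 757, 747 and 668 CPM in those of *Plxnb1-/-* cells. WT replicate 2 stood above the other WT cultures, and *Plxnb1-/-* replicate 3 was the lowest. The means were 969 ± 183 CPM in WT and 724 ± 48.7 CPM in *Plxnb1-/-* cultures (SD, n = 3 each), a log2 fold change of -0.42 ± 0.12 (SE) with an adjusted p of 0.273 by edgeR's quasi-likelihood test and 0.017 by DESeq2. *Actg2* (chr6:83512905-83536265, minus strand), the enteric smooth muscle gamma-actin, measured 143, 224 and 166 CPM in WT against 127, 126 and 104 CPM in *Plxnb1-/-* cultures. It had the most negative log2 fold change of the 36 genes, -0.58 ± 0.15 (SE), with an adjusted p of 0.273 by edgeR and 0.13 by DESeq2. Without WT replicate 2 the log2 fold change was -0.26 for *Acta2* and -0.37 for *Actg2*.

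The cytoplasmic actins, which every cell uses, differed less. *Actb* measured 1557, 1698 and 1502 CPM in WT against 1393, 1428 and 1421 CPM in *Plxnb1-/-* cultures, and *Actg1* measured 820.4, 895 and 789.7 CPM in WT against 743, 743 and 736 CPM in *Plxnb1-/-* cultures. Their log2 fold changes were -0.17 and -0.17 (adjusted p = 0.289 and 0.285, edgeR's quasi-likelihood test), and without WT replicate 2 they were -0.11 and -0.12. The *Plxnb1-/-* cultures lay within a narrow band and the WT cultures above it. The counts of *Actg1* could be shared with 6 processed pseudogenes, whose own counts summed to 6.80% of those of *Actg1*.

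Per kilobase of exon, a scale that allows for exon length, *Actb* was the most abundant of the 36 genes with a WT mean of 592 CPM per kilobase. Reads lost at splice junctions and removed as duplicates can differ between genes. Levels, shares and percentages that compare different genes are therefore approximate. Of the per-kilobase level of the 4 actins, *Actb* made up 40.6% ± 2.21 in WT and 43.5% ± 1.33 in *Plxnb1-/-* cultures (SD, n = 3 each). *Acta2* made up 30.0% ± 2.4 in WT and 27.2% ± 1.21 in *Plxnb1-/-* cultures (SD, n = 3 each). The smooth muscle actins together took 34.4%, 41.1% and 37.8% in WT replicates 1, 2 and 3 and 34.8%, 34.1% and 31.5% in *Plxnb1-/-* replicates 1, 2 and 3. These shares overlapped between the genotypes, since WT replicate 1 lay below *Plxnb1-/-* replicate 1. The log2 ratio of *Acta2* to *Actb* was lower by 0.24 in *Plxnb1-/-* cultures, with p = 0.2 in an exact two-sided permutation test that cannot give less than 0.1 for 3 against 3 cultures. Without WT replicate 2 it was lower by 0.15 (p = 0.4, exact permutation test). The ratio of *Actg1* to *Actb* was almost the same in all libraries, from 52.2% to 53.8%, with a difference in log2 ratio of -0.0073 (p = 0.6, exact permutation test).

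**Figure D2:**
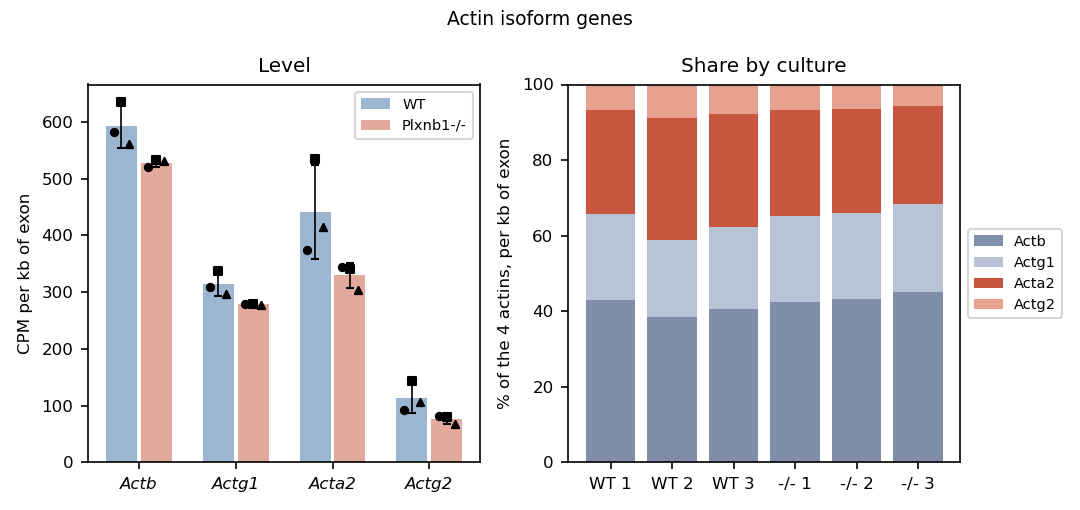
Left, level of the 4 actins in CPM per kilobase of exon, as the mean of each genotype (bars, n = 3) with the SD (error bars) and each culture (circles, squares and triangles for replicates 1, 2 and 3). Right, share of each actin in their sum in each culture, in percent. The smooth muscle actins Acta2 and Actg2 are highest in WT replicate 2, where they reach 41.1% of the actin level, and lowest in Plxnb1-/- replicate 3, at 31.5%.

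The calponin family, proteins that bind along the side of actin filaments, was lower in *Plxnb1-/-* cultures in 5 of 5 members with no overlap between the genotypes. *Cnn1* (chr9:22099216-22109630, plus strand), calponin of differentiated smooth muscle, measured 32.7, 37.9 and 32.8 CPM in the WT libraries, against 27.1, 25.5 and 23.5 CPM in those of *Plxnb1-/-* cells. Its mean was 34.5 ± 3.00 CPM in WT and 25.4 ± 1.82 CPM in *Plxnb1-/-* cultures (SD, n = 3 each). The log2 fold change was -0.44 ± 0.08 (SE), with an adjusted p of 0.194 by edgeR's quasi-likelihood test and 0.00023 by DESeq2. Among the 7 genes with a log2 fold change below -0.4 it changed least when WT replicate 2 was left out, to -0.36. The broadly expressed *Cnn2* measured 368, 415 and 369 CPM in WT against 335, 331 and 333 CPM in *Plxnb1-/-* cultures (-0.21, adjusted p = 0.273, edgeR). *Cnn3*, the acidic calponin of non-muscle cells, differed by -0.09, and *Gm42928* on the opposite strand covers 17.7% of its exon length.

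*Tagln* (chr9:45929619-45936058, minus strand), which codes for transgelin or SM22-alpha, an actin-binding protein of smooth muscle, measured 381, 458 and 389 CPM in WT against 352, 349 and 347 CPM in *Plxnb1-/-* cultures. The log2 fold change was -0.23 (adjusted p = 0.284, edgeR's quasi-likelihood test), or -0.14 without WT replicate 2. This value is uncertain, because the antisense gene *Gm48529* covers 62.4% of the exon length of *Tagln* and held 98.1% to 98.6% as many counts in each library. Reads of the pair cannot be told apart unless the counting used strand, and its strand setting was not given in the sources used here. *Tagln2*, its widely expressed relative, measured 678, 727 and 668 CPM in WT against 647, 653 and 664 CPM in *Plxnb1-/-* cultures, with *Plxnb1-/-* replicate 3 just below WT replicate 3, and its log2 fold change went from -0.08 to -0.04 without WT replicate 2. *Tagln*, *Cnn1* and *Tpm1* lie on chromosome 9 with *Plxnb1*, at 63.2, 87.0 and 42.0 Mb from it.

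Among myosin II and its kinase the members differed from each other. *Myl9* (chr2:156775420-156781658, plus strand), the regulatory light chain of smooth muscle and non-muscle myosin II, measured 131, 172 and 150.5 CPM in the WT libraries, against 122, 111 and 108 CPM in those of *Plxnb1-/-* cells. The genotypes did not overlap, and *Plxnb1-/-* replicates 2 and 3 were close to each other. The means were 151 ± 20.3 CPM in WT and 114 ± 7.16 CPM in *Plxnb1-/-* cultures (SD, n = 3 each), with a log2 fold change of -0.41 ± 0.09 (SE) and an adjusted p of 0.266 by edgeR's quasi-likelihood test and 0.004 by DESeq2. *Myh9*, the heavy chain of non-muscle myosin IIA, measured 2042, 2462 and 2161 CPM in WT against 1926, 1945 and 1873 CPM in *Plxnb1-/-* cultures (-0.21, adjusted p = 0.286, edgeR, and -0.13 without WT replicate 2).

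The other members of the group overlapped between genotypes. *Myh10*, the heavy chain of non-muscle myosin IIB, measured 269, 232 and 252 CPM in WT against 248, 254 and 265 CPM in *Plxnb1-/-* cultures, with WT replicate 2 the lowest of the 6. *Mylk*, the kinase that phosphorylates the regulatory light chain, measured 14.1, 12 and 14.7 CPM in WT against 11.3, 12.6 and 17.3 CPM in *Plxnb1-/-* cultures, and *Plxnb1-/-* replicate 3 was the highest. Its log2 fold change of 0.01 became -0.07 without WT replicate 2, and that of *Myh10* went from 0.03 to -0.02. *Myl12a*, another regulatory light chain, differed by -0.11, or -0.04 without WT replicate 2, and is uncertain, since it overlaps its near copy *Myl12b* on the same strand. The log2 ratio of *Myh10* to *Myh9* was higher by 0.24 in *Plxnb1-/-* cultures and overlapped (p = 0.3, exact permutation test), and was higher by 0.11 without WT replicate 2 (p = 0.5, exact permutation test). As a percentage, *Myh10* per kilobase came to 16.3%, 11.6% and 14.4% of *Myh9* in WT and to 15.9%, 16.1% and 17.5% in *Plxnb1-/-* cultures.

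The tropomyosins, which lie along the filament and govern the access of myosin, were lower in all 3 members without overlap. *Tpm2* (chr4:43514711-43523765, minus strand), abundant in smooth and slow skeletal muscle, measured 177, 259 and 206 CPM in the WT libraries, against 159, 162 and 146 CPM in those of *Plxnb1-/-* cells. WT replicate 2 was again the highest and *Plxnb1-/-* replicate 3 the lowest. The log2 fold change was -0.46 ± 0.12 (SE), or -0.30 without WT replicate 2 (adjusted p with all libraries = 0.273, edgeR's quasi-likelihood test, and 0.0084, DESeq2). *Tpm1*, a tropomyosin of muscle and non-muscle cells, measured 987, 1053 and 982 CPM in WT against 879.6, 873 and 856 CPM in *Plxnb1-/-* cultures. Here the 3 values of each genotype lay close together, and the log2 fold change was -0.21 ± 0.04 (SE) (adjusted p = 0.256, edgeR, and 0.006, DESeq2, below the fold cutoff of 0.25). *Tpm4*, which had the highest level of the 3 per kilobase of exon, differed by -0.11, or -0.07 without WT replicate 2. The log2 ratio of *Tpm2* to *Tpm1* was lower by 0.23 in *Plxnb1-/-* cultures and overlapped (p = 0.3, exact permutation test), and was lower by 0.12 without WT replicate 2 (p = 0.5, exact permutation test).

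*Cald1*, or caldesmon, which blocks myosin on the filament, differed by -0.10, or -0.05 without WT replicate 2, with no overlap by a narrow margin. *Lmod1*, a leiomodin that nucleates filaments in smooth muscle, was the member with the lowest counts, at 5.49, 3.86 and 4.98 CPM in WT against 4.55, 4.03 and 4.31 CPM in *Plxnb1-/-* cultures. Its values overlapped, and WT replicate 2 was the lowest, unlike in *Acta2*, *Actg2*, *Tagln*, *Cnn1*, *Myl9* and *Tpm2*. Its log2 fold change went from -0.15 to -0.28 without that culture.

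Alpha-actinin and filamin crosslink filaments. *Actn1* (chr12:80167547-80260371, minus strand), an alpha-actinin of stress fibres and adhesions, measured 551, 728 and 574 CPM in the WT libraries, against 486, 471 and 427 CPM in those of *Plxnb1-/-* cells. The genotypes did not overlap, with means of 618 ± 96.3 CPM in WT and 461 ± 30.4 CPM in *Plxnb1-/-* cultures (SD, n = 3 each). The log2 fold change was -0.42 ± 0.10 (SE), with an adjusted p of 0.266 by edgeR's quasi-likelihood test and 0.0057 by DESeq2, and -0.28 without WT replicate 2. *Actn4*, the other non-muscle alpha-actinin, measured 1258, 1160.2 and 1212 CPM in WT against 1195, 1258 and 1265 CPM in *Plxnb1-/-* cultures, overlapping between genotypes, and its log2 fold change went from 0.03 to 0.01 without WT replicate 2. As a percentage of *Actn4* per kilobase, *Actn1* came to 48.5%, 69.5% and 52.5% in WT and to 45.0%, 41.5% and 37.4% in *Plxnb1-/-* cultures. This was the only one of the 5 ratios tested without overlap: the log2 ratio was lower by 0.45, at the smallest p that 3 against 3 cultures allow (0.1, exact two-sided permutation test). Without WT replicate 2 it was lower by 0.29 (p = 0.2, exact permutation test).

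*Flnc* (chr6:29433256-29461883, plus strand), the filamin of striated muscle, measured 356, 384 and 353 CPM in the WT libraries, against 299, 306 and 291 CPM in those of *Plxnb1-/-* cells. The spread within each genotype was small beside the gap between them. The log2 fold change of -0.28 ± 0.05 (SE) had the lowest adjusted p of the 36 genes by both tools, 0.168 by edgeR's quasi-likelihood test and 0.00022 by DESeq2. Without WT replicate 2 it was -0.24. *Flna*, the filamin of most cells and the member with the most counts per library, differed by only -0.09, also without overlap. *Palld*, or palladin, a scaffold that binds alpha-actinin, measured 253, 266 and 249 CPM in WT against 235, 225 and 212 CPM in *Plxnb1-/-* cultures (-0.20, adjusted p = 0.273, edgeR).

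All 11 adaptors of focal adhesions and stress fibres had a log2 fold change at or below 0, and in 8 the genotypes did not overlap. *Enah* (chr1:181896384-182019990, minus strand), which promotes filament elongation at barbed ends, measured 89.7, 124 and 92.1 CPM in the WT libraries, against 79.9, 72.0 and 62.7 CPM in those of *Plxnb1-/-* cells. WT replicate 2 stood apart from the other WT cultures, and the *Plxnb1-/-* cultures lay below all of them. The means were 102 ± 19.2 CPM in WT and 71.5 ± 8.61 CPM in *Plxnb1-/-* cultures (SD, n = 3 each), with a log2 fold change of -0.51 ± 0.13 (SE), or -0.34 without WT replicate 2 (adjusted p with all libraries = 0.273, edgeR's quasi-likelihood test, and 0.0061, DESeq2). *Vasp*, of the same family, measured 129.8, 139.8 and 128 CPM in WT against 113, 117 and 114 CPM in *Plxnb1-/-* cultures (-0.21, adjusted p = 0.266, edgeR, and 0.024, DESeq2).

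Among the adaptors talin differed least. *Tln1*, or talin, which links integrin tails to actin, measured 779, 757 and 796 CPM in WT against 734, 791 and 807 CPM in *Plxnb1-/-* cultures, with the genotypes interleaved and a log2 fold change of -0.00, or -0.02 without WT replicate 2. *Vcl*, or vinculin, which reinforces that link, measured 577, 590.3 and 564 CPM in WT against 537, 543 and 549 CPM in *Plxnb1-/-* cultures. Its genotypes did not overlap, although the log2 fold change was only -0.09, and *Ap3m1* on the opposite strand covers 25.5% of its exon length. *Zyx*, or zyxin, a LIM protein that repairs strained stress fibres, measured 568, 689.5 and 589.9 CPM in WT against 534, 543 and 517 CPM in *Plxnb1-/-* cultures (-0.21, adjusted p = 0.293, edgeR's quasi-likelihood test, and -0.12 without WT replicate 2).

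The remaining adaptors mostly carry LIM or SH3 domains. *Fhl2*, a LIM-only protein that also acts as a transcriptional cofactor, measured 80.5, 118 and 101 CPM in WT against 81.5, 80.5 and 73.2 CPM in *Plxnb1-/-* cultures. WT replicate 1 lay level with the *Plxnb1-/-* cultures, so that the groups overlapped, and the log2 fold change was -0.35 (adjusted p = 0.293, edgeR's quasi-likelihood test), or -0.21 without WT replicate 2. *Tgfb1i1*, or Hic-5, a paxillin relative of adhesions, measured 141, 177 and 155 CPM in WT against 141, 135 and 128 CPM in *Plxnb1-/-* cultures (-0.23, or -0.13 without WT replicate 2), and the first replicates of the 2 genotypes were nearly equal. *Csrp1*, *Pdlim7*, *Pdlim5* and *Lasp1*, which bind actin or alpha-actinin, had log2 fold changes of -0.17, -0.16, -0.09 and -0.07, and of these *Pdlim7* overlapped. Without WT replicate 2, *Csrp1* was at -0.10 and *Pdlim7* at -0.09.

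**Figure D3:**
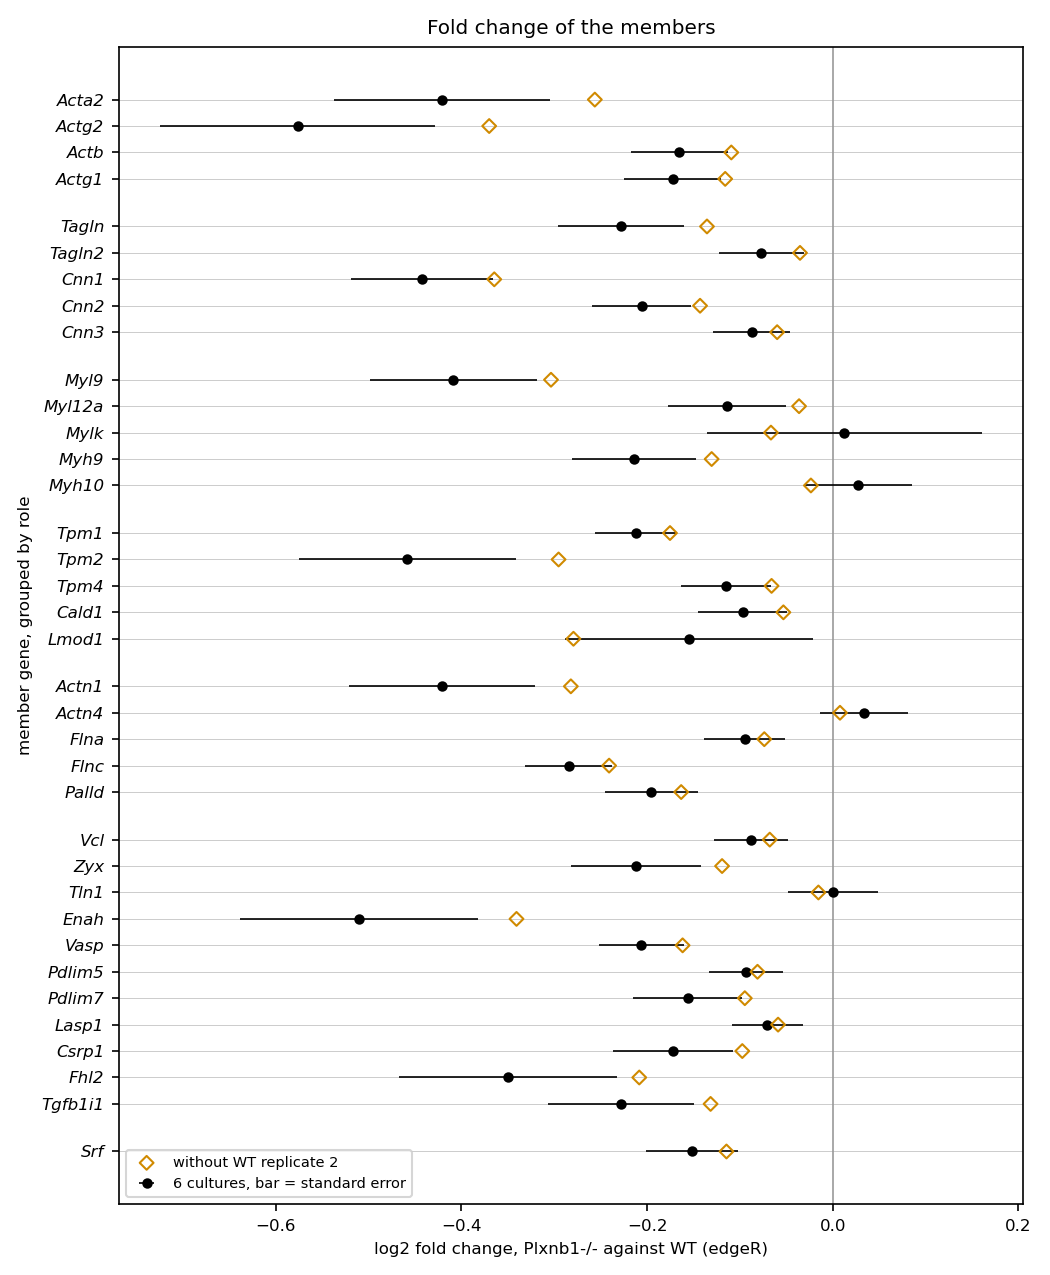
Log2 fold change of each gene, Plxnb1-/- against WT, from edgeR (x axis), with the genes grouped by role (y axis). Dots with bars of 1 standard error stand for all 6 cultures and open diamonds for the value without WT replicate 2. The smooth muscle isoforms Actg2, Acta2, Tpm2, Cnn1 and Myl9, the crosslinker Actn1 and the adaptor Enah lie below -0.4, and Mylk, Myh10, Actn4 and Tln1 lie close to 0.

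SRF binds the CArG box, a short motif that reads the same pattern on both strands, and was itself a member. *Srf* (chr17:46548329-46556175, minus strand) measured 47.9, 51.6 and 48.4 CPM in the WT libraries, against 42.9, 46.1 and 44.2 CPM in those of *Plxnb1-/-* cells. The genotypes did not overlap, and the log2 fold change was -0.15 ± 0.05 (SE) (adjusted p = 0.293, edgeR's quasi-likelihood test). The 250 bases before the start of transcription, from RefSeq on GRCm38.p6, could be read as a window for 32 of the 36 genes and not for *Actb*, *Actg2*, *Tagln* and *Tgfb1i1*. Only an exact box was searched for, CC, then 6 bases of A or T, then GG, so looser forms of the motif were not counted. A CArG box stood in the window of 6 of the 32 (18.8%), against 439 of the 27025 genes with a window (1.62%). The 6 were *Actg1*, *Cnn2*, *Myl9*, *Vcl*, *Fhl2* and *Srf*. A stretch that carries a box is shown for each, with the box in capitals. It runs 5′ to 3′ on the strand of the gene and is cut where an annotated exon begins.
Actg1 (chr11:120348543-120348630, minus strand): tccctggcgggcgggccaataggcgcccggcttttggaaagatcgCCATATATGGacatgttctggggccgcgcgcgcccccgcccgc
Cnn2 (chr10:79988499-79988583, plus strand): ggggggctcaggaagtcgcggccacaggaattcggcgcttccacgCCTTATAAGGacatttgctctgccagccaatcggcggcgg
Myl9 (chr2:156775258-156775357, plus strand): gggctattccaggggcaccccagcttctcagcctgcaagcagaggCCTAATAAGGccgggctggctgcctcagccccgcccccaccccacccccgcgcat
Vcl (chr14:20929148-20929225, plus strand): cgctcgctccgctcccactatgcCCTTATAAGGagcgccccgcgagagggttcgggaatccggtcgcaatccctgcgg
Fhl2 (chr1:43163962-43164037, minus strand): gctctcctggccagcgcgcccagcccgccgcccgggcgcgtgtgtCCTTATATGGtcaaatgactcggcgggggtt
Srf (chr17:46556190-46556289, minus strand): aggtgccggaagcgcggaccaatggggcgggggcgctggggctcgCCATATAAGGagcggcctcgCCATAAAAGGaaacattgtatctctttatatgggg

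The box ended 46 bases before the start in *Cnn2* and 80 bases before it in *Actg1*. *Srf* had 2 boxes close together. *Fhl2* had a box in each of 2 windows, and the stretch of the other window lies in an annotated exon and is not shown. A match is a description of these letters and not a measured site of binding. The genes with a box in the window had a median log2 fold change of -0.19, and 5 of the 6 did not overlap between genotypes. The 26 genes with a window and no box had a median of -0.16, and 19 of them did not overlap. The 4 genes with no window to read had a median of -0.23, and 4 of them did not overlap. The range was -0.41 to -0.09 with a box and -0.51 to 0.03 in windows without one. Genes without an exact box in the window, such as *Acta2*, *Actn1* and *Enah*, were among those with the larger differences. The part of SRF in the members' levels was not tested.

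Other genes of the same pathways were read from lists of their own, and edgeR called 0 genes in each of the 6 lists described here. Over all tested genes, 10.4% were lower and 9.30% higher without overlap. At an unadjusted p below 0.05 (edgeR's quasi-likelihood test), 6.78% were lower and 6.95% higher, and DESeq2 called 0.811% lower and 0.690% higher. Of 36 genes for actin assembly and turnover, 20 lay below 0 and 16 above, with a median of -0.01. The genotypes did not overlap in 10 lower and 1 higher gene, and 5 were lower and 1 higher at an unadjusted p below 0.05, while DESeq2 called 0. The extremes were *Fmnl2*, a formin, at 0.19 (adjusted p = 0.266, edgeR's quasi-likelihood test) and *Wasf1*, a regulator of the Arp2/3 complex, at -0.23 (adjusted p = 0.348, edgeR). Of 31 further focal adhesion genes, 17 lay below 0 and 14 above, with a median of -0.03. The genotypes did not overlap in 6 lower and 4 higher genes. At an unadjusted p below 0.05, 6 were lower and 4 higher, and DESeq2 called 0. Here *Sorbs3*, or vinexin, measured 0.20 (adjusted p = 0.291, edgeR) and *Nexn*, or nexilin, -0.35 (adjusted p = 0.285, edgeR).

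The list for RhoA, ROCK and the regulation of myosin, a pathway that B-type plexins engage, held 26 table entries for 25 genes, with 14 below 0 and 12 above. The genotypes did not overlap in 5 lower and 3 higher entries, and 3 were lower and 3 higher at an unadjusted p below 0.05. DESeq2 called 1, *Rnd1*, and it was lower. *Rnd1*, a small GTPase that binds plexins and opposes RhoA, had the most negative value, -0.81 (adjusted p = 0.255, edgeR's quasi-likelihood test), and *Myh14*, the heavy chain of non-muscle myosin IIC, the most positive, 0.28 (adjusted p = 0.372, edgeR).

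The 6 SRF cofactors gave 2 values below 0 and 4 above, from *Elk1* at -0.08 (adjusted p = 0.538, edgeR's quasi-likelihood test) to *Mrtfb* at 0.12 among those with a mean of at least 1 CPM (adjusted p = 0.373, edgeR). None had an unadjusted p below 0.05 or was called by DESeq2, and the genotypes did not overlap in 0 lower and 1 higher gene. Of 11 further SRF targets, 9 lay below 0 and 2 above, with a median of -0.21. The genotypes did not overlap in 5 lower and 2 higher of these. At an unadjusted p below 0.05, 6 were lower and 2 higher, and DESeq2 called 2 lower, *Glipr1* and *Junb*, and 1 higher, *Nr4a1*. The extremes at a mean of at least 1 CPM were *Glipr1* at -0.50 (adjusted p = 0.286, edgeR) and the immediate early gene *Nr4a1* at 0.30 (adjusted p = 0.273, edgeR). Of the other muscle genes, 8 of 9 were tested, with 6 below 0 and 2 above, and 2 lower and 0 higher without overlap. At an unadjusted p below 0.05, 2 were lower and 0 higher, and DESeq2 called 1 lower, *Smtn*, which codes for smoothelin. *Junb* and *Smtn* are named here after their values were seen. *Des*, or desmin, measured -0.41 (adjusted p = 0.286, edgeR) and *Myh11*, the heavy chain of smooth muscle myosin, 0.21 (adjusted p = 0.801, edgeR). In *Myh11* WT replicate 2 was the lowest library, with 11.1, 5.02 and 10.8 CPM in WT against 7.67, 9.63 and 14.0 CPM in *Plxnb1-/-* cultures.

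**Figure D4:**
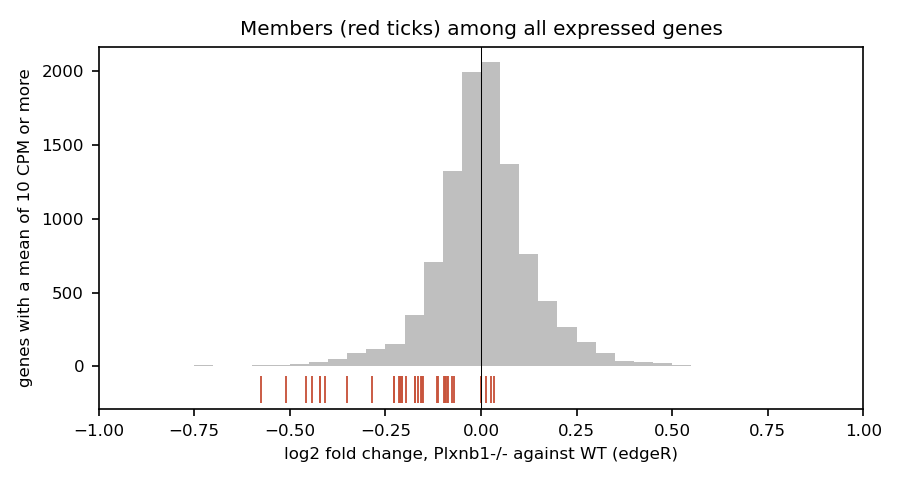
Histogram of the log2 fold change, Plxnb1-/- against WT, of the 10159 tested genes with a mean of at least 10 CPM (x axis, shown from -1 to 1, with 7 genes outside it, y axis, number of genes), with a tick for each of the 36 members, including Lmod1, which is below 10 CPM. The ticks lie mostly to the left of 0, with a median of -0.17, and 9 lie below -0.25.

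The cultures within a genotype also differed. WT replicate 2 was the highest of the 6 libraries in 31 of the 36 genes, against 25.1% of all tested genes and 29.7% of those with a mean of at least 10 CPM. The exceptions were *Mylk*, *Myh10*, *Lmod1*, *Actn4* and *Tln1*. *Plxnb1-/-* replicate 3 was the lowest in 21 of the 36, against 18.5% of all tested genes. The SD relative to the mean was larger in WT than in *Plxnb1-/-* cultures in 30 of the 36, against 56.9%, with a median SD of 7.22% of the mean in WT and 2.85% in *Plxnb1-/-* cultures. Without WT replicate 2, 35 of the 36 genes lay below 0 (47.0% of all genes then tested), 26 did not overlap and were lower (12.8%), and the median was -0.12. edgeR's quasi-likelihood test then called 0 members, and 17 genes lower in all (0.0746%), while 21 members were lower and 0 higher at an unadjusted p below 0.05 (3.99% of all genes then tested were lower). For the 7 genes below -0.4, between 60.9% (*Acta2*) and 82.4% (*Cnn1*) of the log2 fold change remained.

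Markers of cell types were summed beside the members. The 8 fibroblast markers came to between 5494 and 7239 CPM in WT and between 5128 and 5406 CPM in *Plxnb1-/-* cultures, without overlap. Of the 8, 7 lay below 0. *Pdgfra*, *Thy1* and *Col3a1* were lower without overlap and 0 were higher, against 10.4% and 9.30% of all tested genes. Most of the fibroblast sum was *Col3a1*. Without it the sum was 767 to 1109 CPM in WT and 781 to 789 CPM in *Plxnb1-/-* cultures, so that the range of WT enclosed that of *Plxnb1-/-*. *Dpt*, *Pi16* and *Clec3b* were below 1 CPM. The 9 mural cell markers summed to between 1848 and 1994 CPM in WT and between 1855 and 1917 CPM in *Plxnb1-/-* cultures, with 3 below 0 and 6 above. Without *Mcam*, the most abundant of them, the sum was 1086 to 1375 CPM in WT and 1062 to 1113 CPM in *Plxnb1-/-* cultures, which overlapped. The part of either cell type in the lower levels of *Acta2*, *Tagln*, *Cnn1* and *Myl9* was not tested.

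The 8 SC markers lay on the other side, with 7 of 8 above 0 and sums of 1444 to 1802 CPM in WT and 1782 to 2052 CPM in *Plxnb1-/-* cultures, which overlapped only in that WT replicate 1 lay just above *Plxnb1-/-* replicate 1. The 6 proliferation genes, *Mki67* among them, all lay above 0, at 754 to 1045 CPM in WT and 978 to 1178 CPM in *Plxnb1-/-* cultures, with WT replicate 2 the lowest in all 6. The 6 macrophage markers were also all above 0, from 25.9 to 28.4 CPM in WT and from 30.1 to 33.6 CPM in *Plxnb1-/-* cultures, and the 5 neuron markers reached 12.1 to 14.3 CPM and 14.9 to 22.9 CPM. The 3 satellite glia markers came to 762 to 883 CPM and 906 to 933 CPM, and the 5 endothelial markers to 63.7 to 83.1 CPM and 67.8 to 74.0 CPM. Sums were also read without the most abundant gene. Without *Kcnj10*, the satellite glia sums overlapped, at 123.8 to 135.1 CPM in WT and 131.2 to 134.9 CPM in *Plxnb1-/-* cultures. Without *Prph*, the neuron sums overlapped, at 3.28 to 3.70 CPM in WT and 3.68 to 6.14 CPM in *Plxnb1-/-* cultures. The macrophage sums without *Csf1r* stayed apart, at up to 13.7 CPM in WT and at least 14.5 CPM in *Plxnb1-/-* cultures. No marker was at 0 in any library. None of these lists had a gene called by edgeR, although 5 SC markers and 3 macrophage markers were higher, and 3 fibroblast markers and 1 mural cell marker lower, at an unadjusted p below 0.05. Over all tested genes, 6.78% were lower and 6.95% higher at that level, and DESeq2 called 0.690% higher. The endothelial list had 1 higher gene at that level, satellite glia 1, proliferation 2 and neurons 0, and DESeq2 called 1 macrophage marker, *Cx3cr1*, as higher and 0 in the other lists. The part of cell composition and proliferation in the members' levels was not tested.

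**Figure D5:**
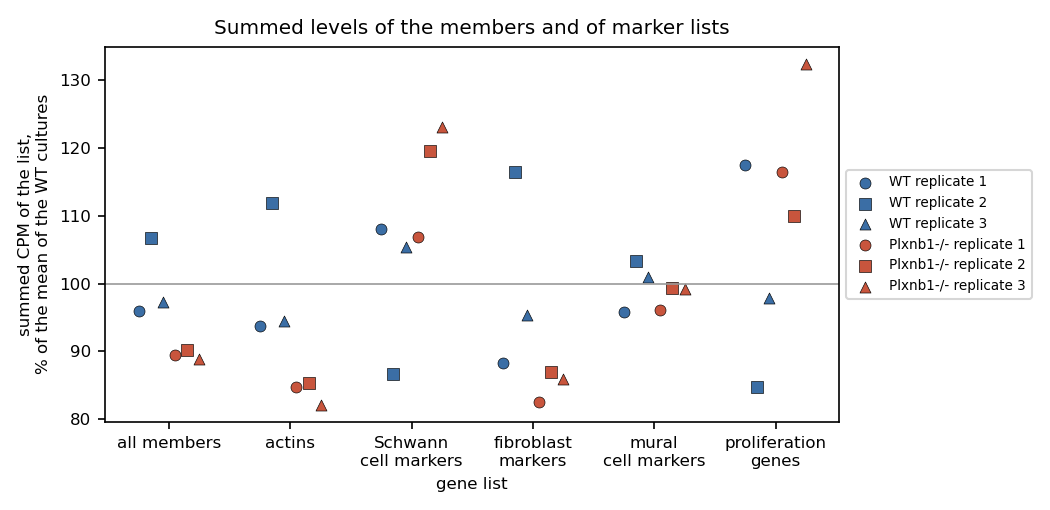
Summed CPM of the 36 members, of the 4 actins and of 4 marker lists in each culture, as a percentage of the mean of the WT cultures (y axis, with the lists along the x axis). Blue stands for WT and red for Plxnb1-/-, and circles, squares and triangles for replicates 1, 2 and 3. The members and the actins are highest in WT replicate 2, at 107% and 112%, where the Schwann cell markers are lowest, at 86.6%.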

How the data were processed

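Poly(A) RNA of 6 SC cultures, 3 WT and 3 *Plxnb1-/-*, was sequenced with a stranded mRNA kit, and samples were grouped by the genotype in the labels. Per the labels and the study's methods, the authors trimmed reads with Trim Galore 0.6.5, aligned them to mm10 with Bowtie2 2.4.1, which does not split reads across introns, removed duplicates with SAMtools 1.10 and deposited counts per gene from featureCounts, not normalized. Reads across splice junctions can therefore be lost, and duplicate removal caps abundant short genes such as the actins. The authors also deposited FPKM values, scaled by the span of the gene rather than its exons in 99.5% of 14948 genes compared. The FPKM columns served only as an alternative.

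The 36 members and all gene and marker lists were chosen with earlier results of these data known. Some further SC markers are not reported here, and the sums and counts of SC markers leave them out. Genes that reached 2 counts in 5 or more of the 6 libraries were tested with edgeR 4.0.16 (TMM, quasi-likelihood test, Benjamini-Hochberg over all 22318 genes, R 4.3.3), and the thresholds for a call were 0.05 for the adjusted p and 0.25 for the size of the log2 fold change. The standard error was the log2 fold change divided by the root of the F statistic. DESeq2 1.42.0, which the study names, and limma 3.58.1 on log2(FPKM + 0.1) and log2(FPKM + 1) were alternatives, as were other scalings, filters, a replicate block, leaving out chromosome 9 and leaving out each library. Ratios of related genes were compared on counts per kilobase of exon with an exact two-sided permutation test. All members were named, and from each other list the gene with the largest rise and the gene with the largest fall at a mean of at least 1 CPM. On simulated counts of 21752 genes with WT against *Plxnb1-/-* library sizes, edgeR called 92 of 100 genes changed by a log2 value of 1 and 76 of 100 changed by 0.5, with 12 unchanged genes called, and DESeq2 called 96, 82 and 39. Each gene was drawn independently, without differences shared by the genes of a culture, and changes smaller than 0.5 were not simulated. Depth lay between 59252048 and 77280964 counts per library. Floors cover counting error only. Gene positions and exon lengths came from a GENCODE annotation of GRCm38 older than the one the authors used, and 55141 of 55401 identifiers matched without their version. Promoter sequences came from RefSeq on GRCm38.p6.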

Additional observations from a re-analysis of the deposited data

How the results depend on the processing

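The lower levels of the members kept their direction under every alternative run, with 30 to 35 of the members tested below 0 (30 of 33 without chromosome 9), 25 to 31 lower without overlap and a median log2 fold change between -0.21 and -0.12. Whether they were called did not keep: edgeR's quasi-likelihood test called 0, DESeq2 called 7 and edgeR without a filter on low counts called 8, the same 7 and *Actg2* (0.564% of all genes lower there), while every other alternative called 0. Over all genes, 8 were called with all libraries, 335 by DESeq2, 296 without the filter, 3 by limma on log2(FPKM + 0.1) and 3 on log2(FPKM + 1), 2 without chromosome 9, and 4 to 25 when 1 library was left out, with 25 without WT replicate 2. With the replicate number as a block the count was 5, and no member was called. The labels give both genotypes the same replicate numbers, but same-numbered cultures did not deviate together (r = -0.0218, 0.00782 and 0.0653 across genes), and WT replicate 1 correlated best with *Plxnb1-/-* replicate 2, so the numbers were taken as names. DESeq2 gave no adjusted p for 33.0% of the tested genes.

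Signs turned only for genes near 0, and the cause was not tested. *Tln1* (-0.00) measured 0.00143 with TMM factors computed without the members, 0.00198 without the filter, 0.000336 with filterByExpr, 0.0109 and 0.0105 on log2(FPKM + 0.1) and log2(FPKM + 1), and from -0.027 to 0.037 when 1 library was left out, above 0 without WT replicate 1, WT replicate 3 or *Plxnb1-/-* replicate 1. *Mylk* (0.01) measured -0.000429 with the replicate block and -0.18 to 0.13 with 1 library left out, below 0 without *Plxnb1-/-* replicate 3 or WT replicate 2. *Myh10* (0.03) measured -0.023 to 0.083, below 0 without WT replicate 2. The log2 ratio of *Actg1* to *Actb* measured -0.020 to 0.00086, above 0 without *Plxnb1-/-* replicate 3. For the ratios, the number of cultures rather than the depth sets the limit, since 3 against 3 cannot give an exact p below 0.1.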
